A study of Mus musculus with 20 samples.

Results

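The 9 genes described here, Vwf, Thbd, Procr, Tfpi, Plat, Plau, Plaur, F2r and F8, are those through which endothelial cells govern blood clotting and clot removal. They were taken by symbol from 46983 gene IDs, and all 9 were among the 14876 genes with enough counts to be tested. RNA was measured in bulk in CD31-positive cells sorted from E0771 tumours, a mouse mammary carcinoma line grown in the fat pad of the mammary gland in C57BL/6J mice, and tumours were taken at 500 mm3. All groups thus share strain, tumour line and endpoint, and the ages of the hosts are not given in the labels used here. Host backgrounds classed by the submitters as deficient for CD4 T cells were TCRKO (n = 3), CD4KO (n = 3) and Tie2Cre_H2Abf (n = 4), whose genotype is Tie2Cre;H2Ab fl/fl. Those classed as competent were CD8KO (n = 3), Tie2Cre (n = 3) and wild type (WT, n = 4). The names TCRKO, CD4KO and CD8KO are the labels' own and give no allele. Tie2-driven Cre is active in endothelial and in blood cells, so a floxed H2-Ab1 allele, a chain of MHC class II, is open to deletion in both.

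Resting endothelium holds blood fluid. Thrombomodulin and the endothelial protein C receptor turn thrombin towards the activation of protein C, and tissue factor pathway inhibitor blocks the first enzyme complex of the clotting cascade. On activation the same cells release von Willebrand factor from Weibel-Palade bodies, their storage granules, which tethers platelets and carries factor VIII. Clots are dissolved by plasmin, which tissue-type and urokinase-type plasminogen activators make from plasminogen. Tumour vessels are often activated and leaky, and thrombin signals to them through protease-activated receptors.

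Libraries held between 1543892 and 11478923 counts. Levels are given as CPM, counts relative to library sizes scaled by TMM, for comparing libraries, and as TPM, which also corrects for length, for comparing genes. In 2 libraries, WT_9771 and Tie2Cre_9501, satellite genes took 47.1% and 19.7% of counts, and ribosomal, mitochondrial and other abundant RNA took 18.4% to 87.3% in all 20. The endothelial markers Pecam1 (435 to 1376 CPM) and Cdh5 (672 to 1909 CPM) were high in every library. H2-Ab1 was at 0.712 to 6.37 CPM in Tie2Cre_H2Abf libraries and at 25.4 to 96.1 CPM in Tie2Cre libraries. Cd8a stood at 39 to 69.7 CPM in the 3 libraries labelled CD8KO and at no more than 2.94 CPM in any other library. Of 10 T cell markers, Cd8b1, Cd3d and Trbc1 were at 0 in all libraries labelled CD8KO. Cd8b1 and Cd3d were also at 0 in all TCRKO and all WT libraries, so these zeros are not particular to CD8KO. Apart from Cd8a, the highest mean of these markers in CD8KO libraries was 2.55 CPM, for Cd4. The source of the Cd8a reads was not tested, so they do not settle whether that label holds. Cd4 was read at 4.22 to 15.7 CPM in the libraries labelled CD4KO, beside 0.379 to 15.6 CPM in WT libraries. The CD4KO mean of 9.16 CPM was the highest of the 6 backgrounds. Trac, the constant part of the T cell receptor alpha chain, was near the floor everywhere, at 0.616 to 1.07 CPM in TCRKO and 0 to 0.82 CPM in WT libraries, so it does not check the TCRKO label. What is written below of CD8KO, CD4KO or TCRKO is therefore of libraries so labelled. The labels do not say that libraries of 1 background came from separate hosts, so p-values measure the spread between libraries, which may be technical. In bulk RNA, fewer cells of a type and less RNA per cell cannot be told apart.

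Plaur and F2r are the 2 members whose Tie2Cre_H2Abf libraries all lay above their Tie2Cre libraries, and RefSeq (GRCm38.p6) gives a promoter window for both, from 250 bases before to 50 after the start. Plaur, on the plus strand at chr7:24462233-24462532, and F2r, on the minus strand at chr13:95618417-95618716, are printed 5′ to 3′ with searched motifs in capitals.
Plaur: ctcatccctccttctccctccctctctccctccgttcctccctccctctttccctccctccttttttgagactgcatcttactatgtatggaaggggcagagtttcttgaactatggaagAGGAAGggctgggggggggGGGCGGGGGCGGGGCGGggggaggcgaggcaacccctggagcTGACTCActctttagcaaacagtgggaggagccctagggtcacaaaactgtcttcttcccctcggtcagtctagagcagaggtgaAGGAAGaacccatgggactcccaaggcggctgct
F2r: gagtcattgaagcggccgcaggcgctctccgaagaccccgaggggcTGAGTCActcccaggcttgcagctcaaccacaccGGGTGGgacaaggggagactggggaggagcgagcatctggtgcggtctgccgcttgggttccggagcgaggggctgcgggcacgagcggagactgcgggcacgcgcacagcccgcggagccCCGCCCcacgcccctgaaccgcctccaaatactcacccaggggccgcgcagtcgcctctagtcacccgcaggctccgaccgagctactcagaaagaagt
Capitals mark the GC box GGGCGG, the CACCC box CCACCC, the AP-1 letters TGANTCA and the ETS letters AGGAAG, read on both strands; TATAAA and AGATAA were searched too and were found in neither. Plaur held 3 GC boxes at positions -111, -105 and -100 from the start, the last 2 of which share a base, TGACTCA at -69, and AGGAAG at -130 and 16. F2r held TGAGTCA at -204, GGGTGG at -170 and CCGCCC at -49. Of 32851 windows of this length in the table, 7.81% held TGANTCA, 35.7% GGGCGG, 31.5% CCACCC and 35.4% AGGAAG. Procr also held the AP-1 letters, as TGACTCA at -154, and the windows of Tfpi and F8 did not hold them. Vwf, Thbd, Plat and Plau have no entry in the table. These matches describe the letters and are not evidence of binding.

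Per length, Vwf was the most abundant of the 9 transcripts, with a median of 96.1 TPM over the 20 libraries (17.7 to 569.6 TPM). Its lowest TPM was in the satellite-rich WT_9771. Its highest was in CD8KO_9752, where abundant RNA took 18.4% of counts and Vwf read 478 CPM. Vwf ranked first in 16 of the 20 libraries. Plaur, the urokinase receptor, followed with a median of 67.0 TPM and ranked first in the other 4. Thbd, at a median of 23.4 TPM, and Plat, at 21.8 TPM, lay close to each other. Plau (13.1 TPM), Tfpi (9.16 TPM), Procr (6.09 TPM) and F2r (5.92 TPM) formed a lower range with wide overlap. F8 was near the limit of detection, with a median of 0.105 TPM and between 0 and 73 counts per library.

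**Figure D1:**
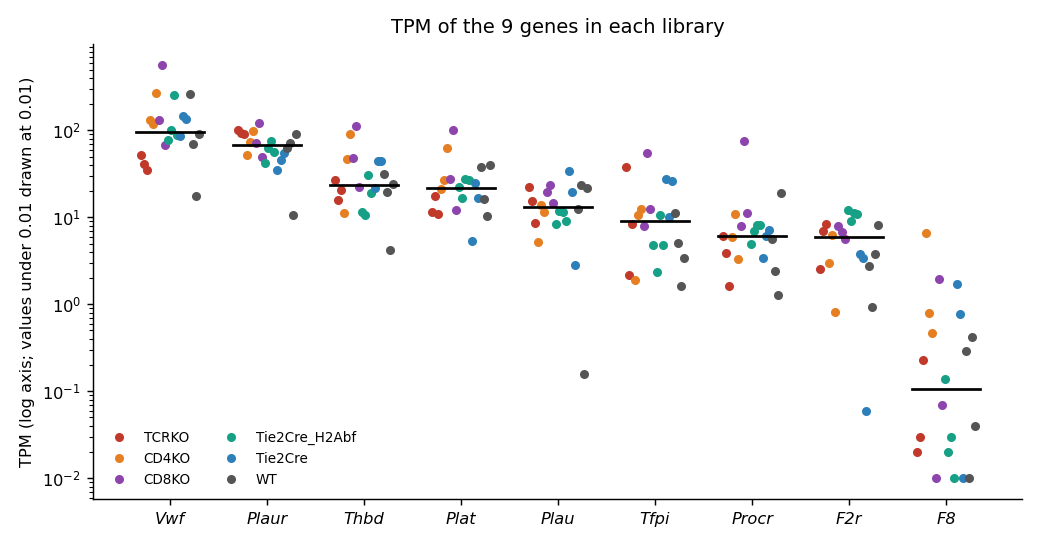
TPM (log axis) of each gene in each of the 20 libraries, coloured by host background; black bars are medians, and values under 0.01 are drawn at 0.01. The medians descend from 96.1 TPM for Vwf and 67.0 TPM for Plaur to 0.105 TPM for F8.

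Vwf was low in all 3 TCRKO libraries. Vwf, von Willebrand factor (chromosome 6, 125546774 to 125686679 in GRCm38, plus strand), measured 132, 134 and 89.6 CPM in the TCRKO libraries, against 1048, 379, 175 and 297 CPM in the WT libraries. Every TCRKO library lay below every one of the other 17 libraries, a pattern shown by 25 of the 14876 tested genes (0.168%). Vwf stood at 223, 409 and 636 CPM in CD4KO libraries and at 421, 478 and 234 CPM in CD8KO libraries. In the class II comparison it read 462, 421, 851 and 522 CPM in Tie2Cre_H2Abf libraries, against 297, 514 and 288 CPM in Tie2Cre libraries, and those ranges overlap. By mean, the order ran from Tie2Cre_H2Abf (564 ± 196 CPM, SD, n = 4) through WT (475 ± 391 CPM, n = 4), CD4KO (423 ± 207 CPM, n = 3), CD8KO (378 ± 128 CPM, n = 3) and Tie2Cre (366 ± 128 CPM, n = 3) to TCRKO (118 ± 25 CPM, n = 3). Among neighbours in that order only Tie2Cre and TCRKO were apart by more than the larger SD.

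On the log2 scale the Vwf difference of TCRKO from WT was -2.00 ± 0.50 (SE), its unadjusted p was 0.000465 and its adjusted p was 0.233 by edgeR's quasi-likelihood test, above the threshold of 0.05. TCRKO differed from CD4KO by -1.84 ± 0.52 (adjusted p = 0.496) and from CD8KO by -1.67 ± 0.51 (adjusted p = 0.874) on the same scale. The TCRKO libraries are the same in all 3 of these differences, which are therefore not independent of each other. Without WT_9748, the highest Vwf library of all, the difference from WT was -1.26 (adjusted p = 0.509). With effective-length offsets it was -1.37 (adjusted p = 0.419), and across the 20 fits that leave out 1 library it ran from -2.28 to -1.26 with adjusted p from 0.0542 to 0.766. It passed the threshold with DESeq2 (-2.05, adjusted p = 0.000726), with genes of at least 5 CPM in 10 libraries (-2.00, adjusted p = 0.0353) and without the 2 satellite-rich libraries (-2.21, adjusted p = 0.0369).

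**Figure D2:**
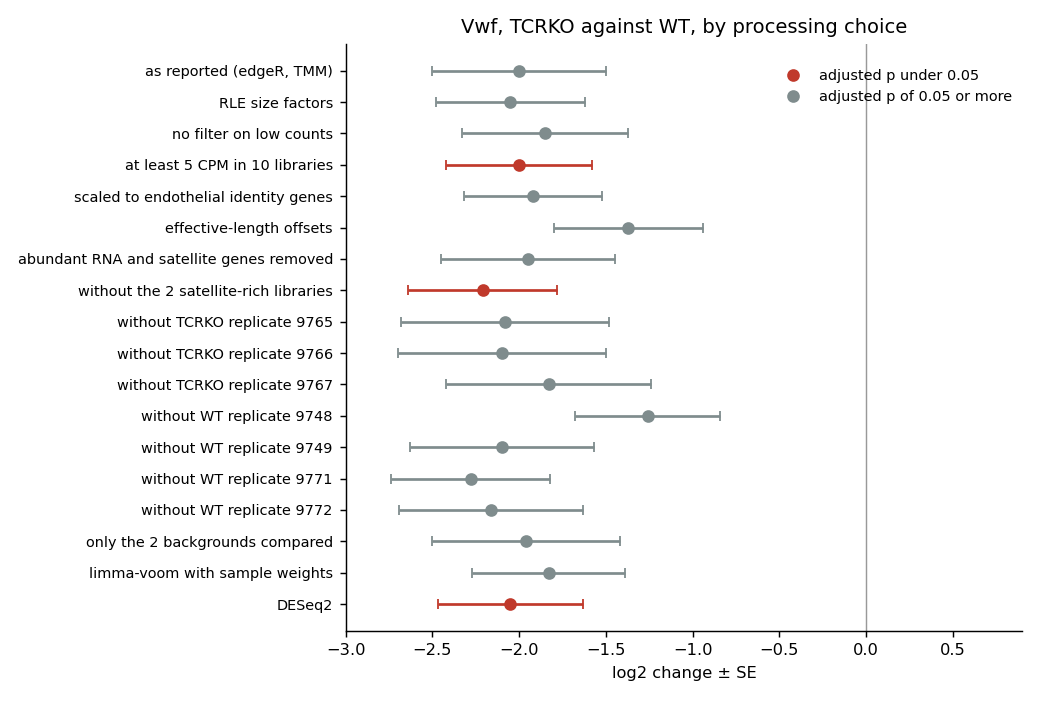
Log2 change (± SE) of Vwf in TCRKO against WT as reported and under each processing alternative, with the fits that leave out a TCRKO or a WT library; red marks an adjusted p under 0.05. All values are negative, from -2.28 to -1.26, and 3 of them are red.

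Most of the 8 genes taken here as markers of venous endothelium, in which von Willebrand factor is typically high, were also low in TCRKO. They are Nr2f2, Ackr1, Selp, Ephb4, Nrp2, Vcam1, Il6st and Lrg1, and how far each is confined to veins was not tested. Il6st, the most abundant of them, averaged 104 CPM in TCRKO and 365 CPM in WT libraries. Against WT, 7 of the 8 were lower and 1, Nr2f2, was higher, at means of 7 CPM in TCRKO and 4.76 CPM in WT. Their median log2 difference was -1.44, beside -0.20 over all tested genes (-1.60 and 0.04 without WT_9771). The 8 venous markers, Selp among them, summed to 211 to 432 CPM in TCRKO libraries, against 517 to 1162 CPM in WT, 828 to 1179 CPM in CD4KO and 752 to 1129 CPM in CD8KO libraries, and none of the 8 was at 0 throughout any of these backgrounds. In the class II comparison the venous sum and Vwf went opposite ways by mean or range. The sum was 528 to 752 CPM in Tie2Cre_H2Abf and 988 to 1489 CPM in Tie2Cre libraries, where Vwf averaged 564 and 366 CPM. The 23 endothelial identity genes summed to 3809.9 to 5715 CPM in TCRKO libraries, against 3159 CPM in the satellite-rich WT_9771 and 6553 to 7098 CPM in the other 3 WT libraries, so apart from WT_9771 their sum too was lower in every TCRKO library. Gene by gene, 14 of the 23 were lower and 9 higher in TCRKO than in WT. Their median log2 difference was -0.25, beside -0.20 over all tested genes (-0.51 and 0.04 without WT_9771). With libraries scaled to those 23 genes, Vwf differed between TCRKO and WT by -1.92 (adjusted p = 0.0834). Platelets also contain Vwf RNA, and the 10 platelet and megakaryocyte markers summed to 3.92 to 19.1 CPM in TCRKO libraries and 0.497 to 28.7 CPM in WT libraries, with Gp5, Tubb1 and Treml1 at 0 in all TCRKO and Gp1bb, Gp9 and Treml1 at 0 in all WT libraries. The part of venous cells or platelets in the Vwf levels was not tested.

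Selp, P-selectin, 1 of those 8 markers, lies in the same Weibel-Palade bodies as von Willebrand factor and was also low in TCRKO. In the class II comparison Selp and Vwf went opposite ways by mean. Selp averaged 77.4 CPM in Tie2Cre_H2Abf and 185 CPM in Tie2Cre libraries, and Vwf 564 and 366 CPM, and neither passed the threshold there by edgeR. Selp averaged 24.7 ± 11.4 CPM in TCRKO (n = 3) and 118 ± 57.4 CPM in WT libraries (SD, n = 4), a log2 difference of -2.26 ± 0.52 with an adjusted p of 0.145 by edgeR. DESeq2 called Selp lower in TCRKO than in WT (-2.29, adjusted p = 0.000154), CD4KO (-2.15, adjusted p = 0.00229) and CD8KO (-2.60, adjusted p = 3.64e-05). Of the 14 tested genes of the Weibel-Palade list, 9 were higher and 5, Selp among them, were lower in TCRKO than in WT. Cd63, a granule membrane protein, averaged 59.2 ± 1.31 CPM in TCRKO and 26.8 ± 12.3 CPM in WT libraries (adjusted p = 0.553). Vamp8, a protein of vesicle fusion, averaged 31.8 ± 10.2 CPM in TCRKO and 10.8 ± 5.53 CPM in WT libraries (adjusted p = 0.528). The 14 tested genes of the Weibel-Palade list had a median log2 difference of 0.39, beside -0.20 over all tested genes. Without WT_9771 these medians were 0.50 and 0.04.

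F8, factor VIII, the cofactor that von Willebrand factor carries (chromosome X, 75172715 to 75382615, minus strand), could hardly be measured. It gave 1, 2 and 6 counts in TCRKO libraries (0.123, 0.238 and 1.36 CPM), against 9, 0, 10 and 1 counts in WT libraries (1.49, 0, 8.2 and 0.189 CPM). It was at 0 in CD8KO_9751, Tie2Cre_H2Abf_9589, Tie2Cre_9504 and WT_9749, where 3 counts would be 0.432, 0.434, 0.378 and 0.637 CPM. CD4KO libraries held 11, 31 and 25 counts (2.4, 3.97 and 1.85 CPM), all above the TCRKO libraries. No F8 difference between backgrounds was detectable at this depth (adjusted p from 0.578 to 1 by edgeR).

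The 3 anticoagulant members, Thbd, Procr and Tfpi, gave no difference past the threshold between backgrounds. Thbd, thrombomodulin (chromosome 2, 148404466 to 148408188, minus strand), read 71.7, 55.5 and 60.3 CPM in TCRKO, 26.9, 112 and 161 CPM in CD4KO, 128, 75.2 and 77.4 CPM in CD8KO, and 77.6, 96.2, 35.3 and 57.5 CPM in WT libraries. In the class II comparison Thbd read 52.2, 37.8, 77.4 and 80.9 CPM in Tie2Cre_H2Abf libraries, against 51.9, 124 and 99.4 CPM in Tie2Cre libraries. All these ranges overlap except that of TCRKO, which lay below that of CD8KO. Adjusted p-values of Thbd were 0.762 or more in every pairwise comparison by edgeR, and no 2 neighbours in the order of means were apart by more than the larger SD.

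Procr, the endothelial protein C receptor (chromosome 2, 155751117 to 155755471, plus strand), was read with 3 to 343 counts per library. Its highest mean was in CD8KO (10.8 ± 4.18 CPM, n = 3) and the next in Tie2Cre_H2Abf (8.03 ± 3.33 CPM, n = 4). It averaged 4.89 ± 2.57 CPM in WT (n = 4), 4.24 ± 1.33 CPM in Tie2Cre (n = 3), 3.8 ± 1.79 CPM in TCRKO (n = 3) and 3.73 ± 1.85 CPM in CD4KO libraries (SD, n = 3). Neighbouring means in this order lay within the larger SD of each other. The TCRKO libraries (1.82 to 5.3 CPM) did not overlap the CD8KO libraries (6.34 to 14.6 CPM), with an adjusted p of 0.874 by edgeR.

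Tfpi, tissue factor pathway inhibitor (chromosome 2, 84432855 to 84476775, minus strand), was high in the Tie2Cre control. It measured 14.3, 6.94, 16.7 and 13.9 CPM in Tie2Cre_H2Abf libraries, against 29.9, 18.1 and 26.4 CPM in Tie2Cre libraries, and 13.6, 14.6, 12.3 and 7.38 CPM in WT libraries. The Tie2Cre libraries overlapped neither of the others, but neither difference passed the threshold (adjusted p = 0.671 and 0.787 by edgeR). TCRKO libraries were scattered, at 36.1, 3.92 and 22.1 CPM, and CD4KO libraries averaged 10.8 ± 6.12 CPM and CD8KO libraries 19.7 ± 5.09 CPM (SD, n = 3 each). In the order of means, from Tie2Cre through TCRKO, CD8KO, Tie2Cre_H2Abf and WT to CD4KO, only CD8KO and Tie2Cre_H2Abf were neighbours apart by more than the larger SD, and their ranges overlap. Its target, tissue factor (F3), did not exceed 4.92 CPM in any library.

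F2r, the thrombin receptor PAR1 (chromosome 13, 95601803 to 95618487, minus strand), stood apart in the class II comparison. It measured 48.3, 28.3, 24.9 and 40.2 CPM in Tie2Cre_H2Abf libraries, against 7.96, 8.16 and 0.126 CPM in Tie2Cre libraries. The lowest Tie2Cre_H2Abf library was above every Tie2Cre library, and the lowest value, in Tie2Cre_9504, came from 1 count. The log2 difference was 2.73 ± 0.96 with an unadjusted p of 0.00837 and an adjusted p of 0.573 by edgeR. Without Tie2Cre_9504 it was 2.16 (adjusted p = 0.541). F2r read 5.91, 21.5 and 21.6 CPM in TCRKO, 6.33, 13.3 and 1.26 CPM in CD4KO, 18.3, 3.97 and 16.8 CPM in CD8KO, and 5.96, 4.03, 27.9 and 17.2 CPM in WT libraries, all overlapping. By mean, Tie2Cre_H2Abf (35.4 ± 10.8 CPM) was followed by TCRKO (16.3 ± 9.03 CPM), WT (13.8 ± 11.1 CPM), CD8KO (13 ± 7.88 CPM), CD4KO (6.96 ± 6.05 CPM) and Tie2Cre (5.42 ± 4.58 CPM), and only the first pair of neighbours was apart by more than the larger SD (n = 3 or 4).

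Both activators of plasminogen were measured in every library. Plat, tissue-type plasminogen activator (chromosome 8, 22757727 to 22782844, plus strand), read 20.1, 39.9 and 20.9 CPM in TCRKO, 47.6, 44.2 and 27.5 CPM in CD8KO and 8.34, 44.6 and 24.6 CPM in Tie2Cre libraries, against 61.2, 52.2, 57.4 and 62.1 CPM in WT libraries. All 9 libraries of those 3 backgrounds lay below all WT libraries. The log2 difference from WT was -1.11 ± 0.48 in TCRKO (adjusted p = 0.559) and -1.16 ± 0.49 in Tie2Cre (adjusted p = 0.692 by edgeR), and these comparisons share the WT libraries. CD4KO libraries, at 34.1, 42.3 and 70.6 CPM, overlapped WT.

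Plat in Tie2Cre_H2Abf libraries was 65.7, 38.8, 45.4 and 73.5 CPM, against 8.34, 44.6 and 24.6 CPM in Tie2Cre libraries, with an overlap of ranges. The log2 difference of 1.10 ± 0.48 had an adjusted p of 0.573 by edgeR, and it was 0.69 without Tie2Cre_9501, the lowest Plat library and 1 of the 2 satellite-rich ones. By mean, Plat ran from WT (58.2 ± 4.5 CPM) and Tie2Cre_H2Abf (55.8 ± 16.4 CPM) through CD4KO (49 ± 19.2 CPM) and CD8KO (39.7 ± 10.7 CPM) to TCRKO (27 ± 11.2 CPM) and Tie2Cre (25.8 ± 18.2 CPM). Among neighbours only CD8KO and TCRKO were apart by more than the larger SD (n = 3 or 4), and their ranges overlap.

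Plau, urokinase (chromosome 14, 20836660 to 20843385, plus strand), had overlapping ranges in every pairwise comparison. Its means were 27.9 ± 11.1 CPM in TCRKO, 13.1 ± 6.27 CPM in CD4KO, 23.4 ± 12.2 CPM in CD8KO, 21.9 ± 3.24 CPM in Tie2Cre_H2Abf, 27.8 ± 22.3 CPM in Tie2Cre and 29.7 ± 29 CPM in WT libraries (SD, n = 3 or 4). WT libraries alone ran from 0.82 CPM, 1 count in the satellite-rich WT_9771, to 69 CPM in WT_9749. Among neighbours in the order of means only Tie2Cre_H2Abf and CD4KO were apart by more than the larger SD. Adjusted p-values ran from 0.686 to 1 by edgeR.

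Plaur, the receptor that holds urokinase at the cell surface (chromosome 7, 24462484 to 24475968, plus strand), was highest in TCRKO. It measured 84, 110.3 and 90.3 CPM in TCRKO libraries, against 40.6, 57.6 and 50.1 CPM in CD4KO and 50, 24.7 and 57.4 CPM in CD8KO libraries. The TCRKO libraries were above all CD4KO and CD8KO libraries but overlapped WT libraries, at 50.7, 107, 30.3 and 68.5 CPM. The log2 difference was 0.94 ± 0.45 from CD4KO (adjusted p = 0.749) and 1.11 ± 0.45 from CD8KO (adjusted p = 0.874 by edgeR).

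In the class II comparison Plaur read 64.4, 74.7, 51.1 and 79.9 CPM in Tie2Cre_H2Abf libraries, against 25, 39.5 and 34.4 CPM in Tie2Cre libraries, with no overlap. That log2 difference was 1.03 ± 0.43, with an unadjusted p of 0.0227 and an adjusted p of 0.573 by edgeR. Tie2Cre was in turn lower than WT by a log2 difference of -0.96 ± 0.43 (adjusted p = 0.716), with overlapping ranges. Tie2Cre and WT libraries carry numbers from different ranges, 95xx and 97xx, so number range and background cannot be told apart there. By mean, TCRKO (94.9 ± 13.8 CPM) led Tie2Cre_H2Abf (67.5 ± 12.7 CPM), WT (64.2 ± 32.6 CPM), CD4KO (49.4 ± 8.5 CPM), CD8KO (44.1 ± 17.2 CPM) and Tie2Cre (33 ± 7.33 CPM), and only the first pair of neighbours was apart by more than the larger SD. Macrophages also express Plaur, and the 18 macrophage markers summed to 398 to 1021 CPM in TCRKO, 659 to 929 CPM in CD4KO, 318 to 519 CPM in CD8KO and 394 to 947 CPM in WT libraries. They summed to 135 to 794 CPM in Tie2Cre_H2Abf and 244 to 414 CPM in Tie2Cre libraries. Of these markers only Cd163 was at 0 throughout a background, in TCRKO and CD8KO, and the part of macrophages in the Plaur levels was not tested.

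**Figure D3:**
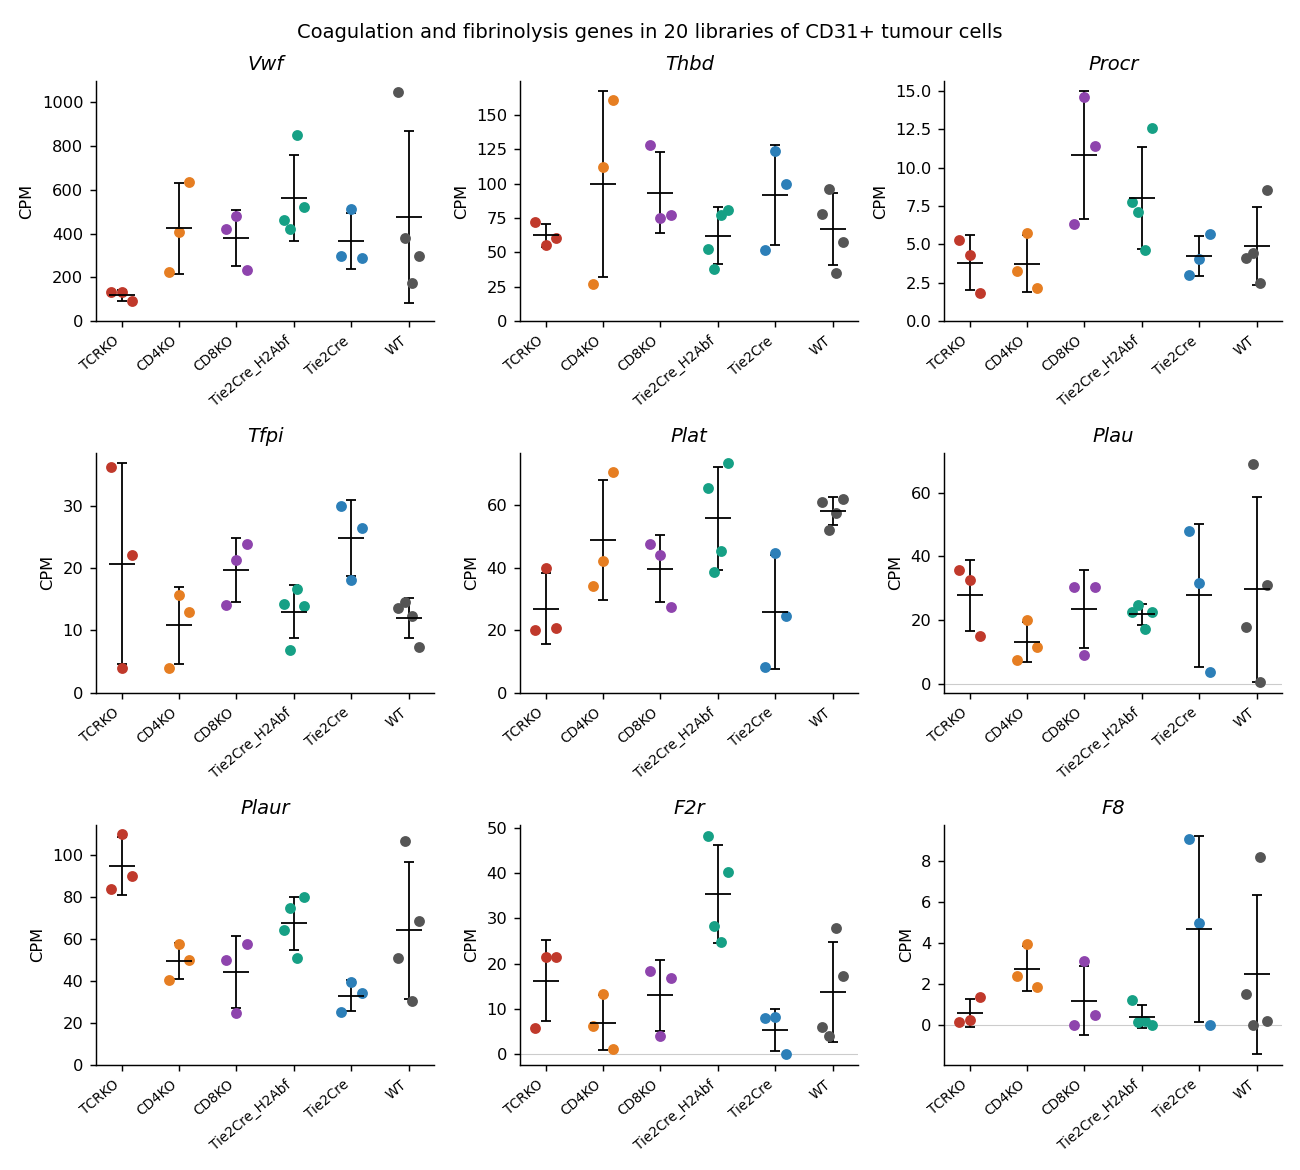
CPM of each of the 9 genes in every library by host background; points are libraries, and bars with whiskers are the mean ± SD (n = 3 or 4). Vwf lies lowest in TCRKO (89.6 to 134 CPM), Plaur highest in TCRKO by mean (94.9 CPM), and F2r highest in Tie2Cre_H2Abf (24.9 to 48.3 CPM).

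Across comparisons, no member passed the threshold by edgeR. For TCRKO against WT the count was 0 of 9, beside 4 of all 14876 tested genes (0.0269%), and 2 members, Vwf and Plat, had an unadjusted p under 0.05, as had 8.66% of all genes. Both were lower in TCRKO with no overlap of ranges, which held for 2.1% of all genes in that direction, and 0 members were higher with no overlap (5.58% of genes). For CD4KO and for CD8KO against WT the count was 0 of 9 with 0 members at an unadjusted p under 0.05, beside 0% of all genes called and 8.6% and 10.5% at that unadjusted p. Plat was lower in CD8KO than in WT with no overlap, as were 1.47% of genes, and 0 members were higher (3.69%). Between CD4KO and WT 0 members were lower (1.19% of genes) or higher (2.73%) with no overlap. The comparisons with WT share its 4 libraries.

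For Tie2Cre_H2Abf against Tie2Cre the count was again 0 of 9, beside 3 of all genes (0.0202%), with Plat, Plaur and F2r at an unadjusted p under 0.05, as were 8.58% of genes. Plaur and F2r were higher with no overlap (5.27% of genes) and Tfpi lower with no overlap (3.77% of genes). The members' median log2 difference was 0.62, beside -0.24 over all tested genes and 0.33 over the 23 endothelial identity genes. Without Tie2Cre_9501 these medians were 0.49, 0.00 and 0.15. The identity genes summed to 7254 to 11152 CPM in Tie2Cre_H2Abf and 4755 to 8893 CPM in Tie2Cre libraries. Of 8 venous markers 6 were lower there and 2 higher. They summed to 528 to 752 CPM in Tie2Cre_H2Abf and 988 to 1489 CPM in Tie2Cre libraries. For Tie2Cre against WT 0 of 9 members and 0% of genes passed, and Plat and Plaur had an unadjusted p under 0.05 (6.88% of genes); Plat was lower with no overlap (1.3% of genes) and Tfpi higher (2.89% of genes).

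Vwf and Plat had the lowest p in the difference between the class II and the TCRKO comparisons. The difference between the log2 changes, Tie2Cre_H2Abf against Tie2Cre minus TCRKO against WT, was 2.63 ± 0.69 for Vwf (unadjusted p = 0.000746, adjusted p = 0.397) and 2.21 ± 0.68 for Plat (unadjusted p = 0.00338, adjusted p = 0.522 by edgeR). For F2r it was 2.45 ± 1.27, with a wider error (unadjusted p = 0.065, adjusted p = 0.743 by edgeR). It was 1.88 for Vwf without WT_9748. Here 0 of 9 members and 0% of genes passed, and 6.81% of genes had an unadjusted p under 0.05. DESeq2 called both members (Vwf 2.51, adjusted p = 0.0114, and Plat 2.22, adjusted p = 0.0323).

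In TCRKO against CD4KO 0 of 9 members passed, beside 0.0134% of genes, with Vwf and Plaur at an unadjusted p under 0.05 (6.22% of genes). Vwf and F8 were lower with no overlap (5.63% of genes) and Plaur higher (6.11%). In TCRKO against CD8KO 0 of 9 members and 0% of genes passed, with Vwf and Plaur again at an unadjusted p under 0.05 (4.73% of genes). Vwf, Thbd and Procr were lower with no overlap (6.74% of genes) and Plaur higher (5.17%). In the test for any difference among the 6 backgrounds 0 of 9 members passed, beside 0.0605% of genes. Vwf (unadjusted p = 0.00644, adjusted p = 0.464) and Plaur (unadjusted p = 0.0319, adjusted p = 0.504) were lowest in p, and 9.37% of genes had an unadjusted p under 0.05.

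By DESeq2, members passed in 4 of the 10 comparisons: Vwf in TCRKO against WT and against CD4KO (-1.79, adjusted p = 0.017), Vwf and Plat in the difference of changes, and Vwf and Plaur among any backgrounds. Of all genes DESeq2 called 1.16% in TCRKO against WT, 0.686% in TCRKO against CD4KO, 0.43% in the difference of changes and 1.75% among any backgrounds, more than edgeR in each. By limma-voom with sample weights no member passed in any of the 10.

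**Figure D4:**
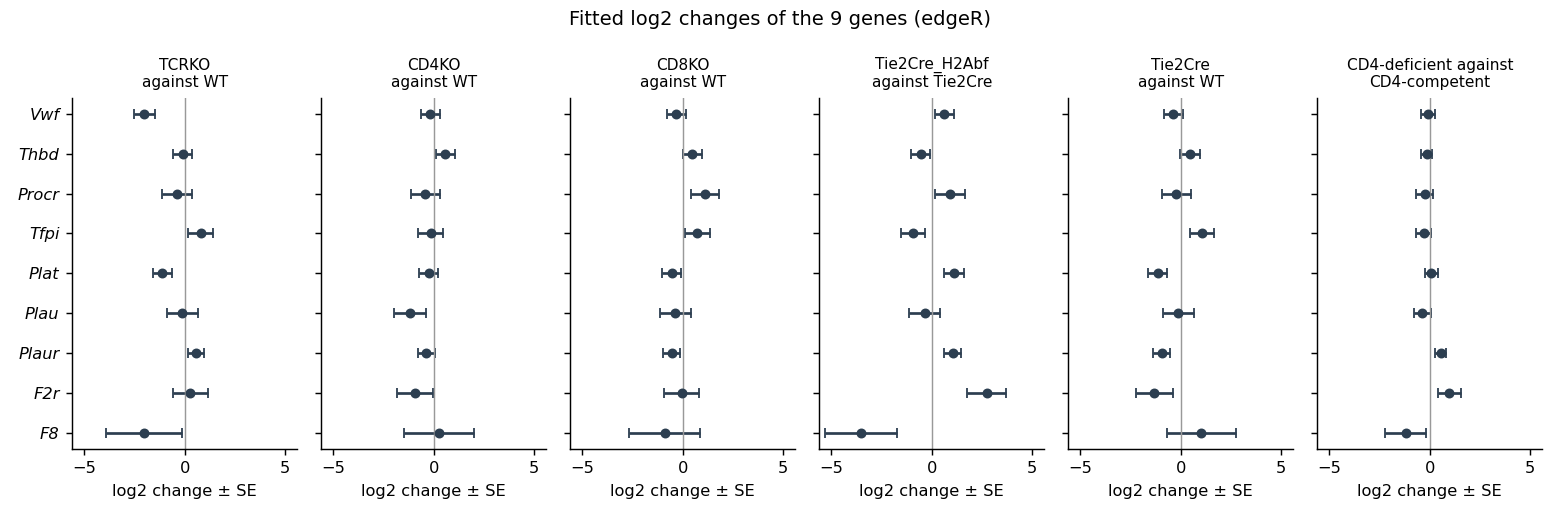
Fitted log2 changes (± SE) of the 9 genes in 6 comparisons, with the group named first over the one it is set against. Vwf stands at -2.00 in TCRKO against WT and F2r at 2.73 in Tie2Cre_H2Abf against Tie2Cre, while F8 has the widest errors.

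Dividing the hosts by CD4 status separated none of the genes. This division takes the different backgrounds of a side as replicates, so its errors and p-values mix differences between backgrounds with spread within them. Vwf, for example, averaged 118 CPM in TCRKO and 564 CPM in Tie2Cre_H2Abf libraries, both on the deficient side. Vwf averaged 388 ± 247 CPM in CD4-deficient and 413 ± 247 CPM in CD4-competent libraries, and Plat 45.1 ± 19.1 CPM in deficient and 43 ± 17.6 CPM in competent libraries (SD, n = 10 each). Plaur averaged 70.3 ± 21.5 CPM in deficient and 48.8 ± 25.1 CPM in competent libraries, with the lowest adjusted p of the 9 (0.708 by edgeR), and F2r 21.2 ± 15.2 CPM in deficient and 11 ± 8.63 CPM in competent libraries. No member passed and none had an unadjusted p under 0.05, beside 0% and 7.26% of all genes. Among libraries numbered 97xx alone the log2 difference by CD4 status was 0.37 ± 0.35 for Plaur and -0.20 ± 0.62 for F2r, beside 0.53 ± 0.27 and 0.97 ± 0.56 in all libraries (adjusted p = 0.999 for both within 97xx, and 0.708 and 0.77 in all). With number range as a covariate it was 0.60 ± 0.27 for Plaur (unadjusted p = 0.0356, adjusted p = 0.694 by edgeR) and 0.71 ± 0.63 for F2r. Within 97xx it was -0.68 ± 0.45 for Vwf, -0.41 ± 0.34 for Plat and -0.99 ± 0.60 for Procr, beside -0.09, 0.07 and -0.26 in all libraries, all with an adjusted p of 0.999 within 97xx by edgeR. The higher F2r level of the deficient side was not seen within the 97xx numbers. The 95xx libraries hold 1 background on each side, and their values are those of Tie2Cre_H2Abf and Tie2Cre.

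Other genes of haemostasis were followed in 7 lists with 61 tested genes, and 0 of these passed in any of the 10 comparisons by edgeR, with 3 to 10 at an unadjusted p under 0.05 in each, where 4.73% to 10.5% of all genes were. DESeq2 called 1 to 3 of the 61 in 7 comparisons, in which it called 0.255% of all genes (TCRKO against CD8KO) to 1.75% (any backgrounds), with 0.598% in CD4KO and 0.545% in CD8KO against WT, and limma-voom called 1, Selp in TCRKO against CD8KO (-2.81, adjusted p = 0.00625). Of 18 clotting factors and cofactors matched, 9 were tested, and Fga, the fibrinogen alpha chain, had no count in any library. Mcfd2, which helps export factor VIII from the endoplasmic reticulum, was low in Tie2Cre libraries. It averaged 12.4 ± 1.41 CPM in Tie2Cre_H2Abf and 2.24 ± 3.25 CPM in Tie2Cre libraries (adjusted p = 0.573 by edgeR), and WT libraries stood at 18.1 ± 10.5 CPM (adjusted p = 0.621 for Tie2Cre against WT by edgeR). The 7 tested anticoagulants included Hs3st1, an enzyme that makes heparan sulphate able to bind antithrombin, at 1.9 ± 1.88 CPM in CD4-deficient and 5.85 ± 3.6 CPM in CD4-competent libraries (n = 10 each, adjusted p = 0.651). Serpinc1, antithrombin, averaged 0.0247 ± 0.0427 CPM in CD4KO and 4.04 ± 2.3 CPM in WT libraries (adjusted p = 0.573 by edgeR, 0.0393 by DESeq2).

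Of 14 fibrinolysis genes, 7 were tested. S100a10 and Anxa2, which form a surface complex that binds plasminogen and tissue-type activator, were both higher in TCRKO than in WT by value. S100a10 averaged 42.6 ± 8.27 CPM in TCRKO and 17.6 ± 11.8 CPM in WT libraries (adjusted p = 0.544), and 11.9 ± 2.6 CPM in CD4KO libraries, from which DESeq2 called TCRKO higher (1.86, adjusted p = 0.0207). Anxa2 averaged 231 ± 31.6 CPM in TCRKO and 125 ± 49 CPM in WT libraries (adjusted p = 0.562 by edgeR), and CD8KO libraries averaged 247 ± 158 CPM. Plasminogen itself (Plg) had no more than 9 counts over all 20 libraries. The list's median log2 difference in TCRKO against WT was -0.07, beside -0.20 over all genes, and 0.08 beside 0.04 without WT_9771.

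All 9 receptors and signal partners of the protease-activated receptor family were tested. Gna13 and Gnaq, G protein subunits that carry the thrombin signal inside the cell, were lower in TCRKO than in WT by value. The other 7 were higher, and the list's median log2 difference was 0.33, beside -0.20 over all genes (0.12 and 0.04 without WT_9771). Gna13 averaged 35.9 ± 14.9 CPM in TCRKO and 77.5 ± 21.4 CPM in WT libraries (adjusted p = 0.513 by edgeR, 0.0108 by DESeq2). DESeq2 also called Gna13 lower in CD8KO than in WT (-1.11, adjusted p = 0.0411). Gnaq averaged 12.3 ± 4.75 CPM in TCRKO and 31.1 ± 13.4 CPM in WT libraries (adjusted p = 0.542 by edgeR). In the class II comparison this list had a median log2 difference of 0.47, beside -0.24 over all genes (0.32 and 0.00 without Tie2Cre_9501), with Gna11, another such subunit, at 26.2 ± 2.5 CPM in Tie2Cre_H2Abf and 7.79 ± 10.6 CPM in Tie2Cre libraries (adjusted p = 0.573).

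Among 7 tested genes of the vessel wall that act on platelets, a list that also holds the platelet-activating Pdpn and its receptor Clec1b, Ptgs1, cyclooxygenase-1 of the prostacyclin pathway, averaged 1.2 ± 0.838 CPM in TCRKO and 8.89 ± 5.95 CPM in WT libraries (adjusted p = 0.407 by edgeR, 0.0234 by DESeq2). Nt5e, the ectoenzyme CD73 that makes adenosine, averaged 44.5 ± 21.9 CPM in Tie2Cre_H2Abf and 11.8 ± 8.46 CPM in Tie2Cre libraries (adjusted p = 0.573). Entpd1, the ectoenzyme CD39 that removes ATP and ADP, was abundant in every library (147 to 514 CPM). Of the transcription factors known to act on endothelial clotting genes, 8 were tested, and Klf2, which in endothelium favours Thbd, averaged 5.77 ± 1.83 CPM in TCRKO, 10.6 ± 7.18 CPM in CD4KO, 10.6 ± 7.86 CPM in CD8KO and 2.71 ± 1.3 CPM in WT libraries (adjusted p = 0.573 for CD4KO and 0.466 for CD8KO against WT by edgeR).

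Over the 20 libraries the members did not move as 1 group. Among log2 CPM values, Pearson's r was 0.52 for Plau with its receptor Plaur (Spearman's rho 0.46), and 0.69 after removing background means. Vwf and Plat had an r of 0.51 (rho 0.65), and 0.74 without the 2 satellite-rich libraries, and Vwf and Thbd had an r of 0.42 (rho 0.49), and 0.67 within backgrounds. Plaur and F8 had the lowest r, -0.63 (rho -0.56), and -0.47 without the 2 satellite-rich libraries. F8 is near the limit of detection. These are descriptions over libraries that share depth, RNA makeup and host background.

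**Figure D5:**
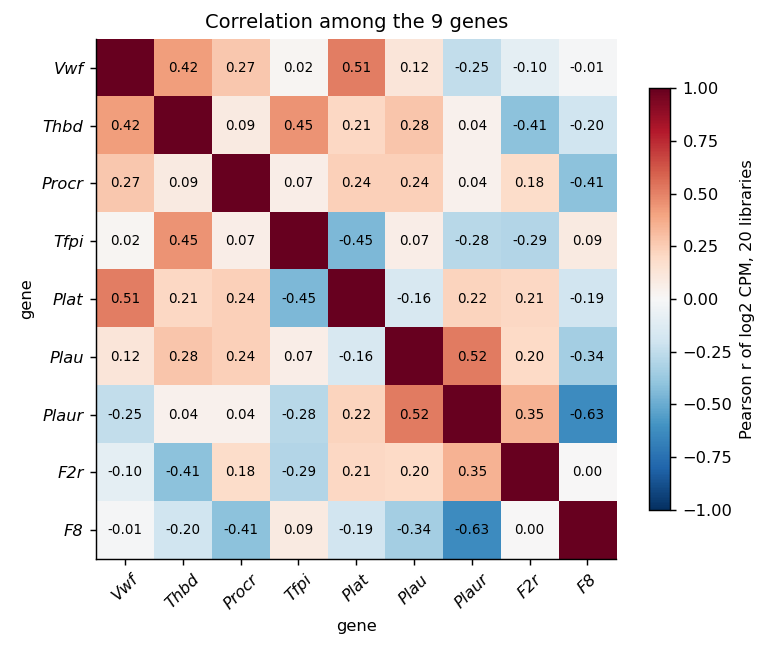
Pearson's r of log2 CPM for each pair of the 9 genes over 20 libraries; red is positive and blue negative. The highest values are those of Plau with Plaur (0.52) and Vwf with Plat (0.51), and the lowest that of Plaur with F8 (-0.63).

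The tested genes with a mean of at least 10 CPM most like Vwf were Ptprb, the endothelial phosphatase VE-PTP (r = 0.86, rho = 0.86), Epas1, the hypoxia factor HIF-2 alpha (r = 0.85, rho = 0.88), and Cttn, cortactin (r = 0.84, rho = 0.89), over 20 libraries, where the median r of all tested genes with Vwf was -0.01. Thbd was most like Cavin1, a coat protein of caveolae (r = 0.83), Ahr (r = 0.83) and Mcf2l (r = 0.82). Procr was most like Plpp3 (r = 0.73), Emcn, the endothelial sialomucin endomucin (r = 0.71), and Gimap4 (r = 0.66). Plat was most like Dab2 and Pdxdc1 (r = 0.86 each) and Cfb, complement factor B (r = 0.85), with Spearman's rho of 0.65 to 0.68. Plaur was most like Gfod1, Actb, the cytoskeletal beta-actin, and Degs1 (r = 0.81 each). For Plau the gene most alike was Seh1l (r = 0.93, rho = 0.69), for Tfpi Sgms1 (r = 0.69), for F2r Arl6ip5 (r = 0.74) and for F8 Bod1l (r = 0.70).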

How the data were processed

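RNA of CD31-positive cells was amplified by MATQ and made into Nextera XT libraries, which do not mark strand, per the labels' protocols; no exon of a member overlaps another gene's exon. The submitters' processing notes name RSEM 1.2.28, STAR without a version, bcl2fastq 2.17, DESeq2 and GRCm38. For 20 libraries the authors deposited expected counts (RSEM's estimated counts, not normalized) and TPM, per the file headers, with TPM interval bounds and the effective length, each another quantity of RSEM also deposited. Of expected counts 4.45% were not whole, and all were rounded. A GENCODE annotation of GRCm38 named 46488 of 46983 IDs.

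Counts were tested with edgeR 4.0.16 in R 4.3.3 (TMM, factors 0.523 to 3.69; filterByExpr by background; robust quasi-likelihood test; Benjamini-Hochberg over 14876 genes, threshold 0.05). CD4 status had a 2-group model, and all others a 6-background model with 1 shared estimate of the spread (biological coefficient of variation 0.995). Median log2 changes over all genes are given beside the members'. The procedure was also run on simulated data with changes larger than most of those of the members, so that run says nothing on smaller ones. Replicate pairs (24) differed by 16.1 to 551 in chi-square per degree of freedom, so none was treated as 1 library. Counting intervals and floors cover counting error only, and 3 counts were 0.128 to 2.46 CPM.

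Named are the 9 members, the 3 genes most correlated with each member, and up to 4 genes per list. Those 4 were taken by smallest p among genes averaging 1 CPM or more. Entpd1, Fga, Plg, F3 and Nr2f2 are outside this rule and were chosen after their values were seen. The venous list is also named in full, and Il6st is given as its most abundant gene, likewise after values were seen. Members, lists and searched motifs were chosen with earlier results of these data known. Klkb1 was not analysed here. Alternatives were DESeq2 1.42.0, limma 3.58.1 (voom with sample weights), RLE factors, other filters, scaling to 23 endothelial genes, effective-length offsets, removal of abundant RNA or of the satellite-rich libraries, fewer groups, number ranges, and leaving out each library.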

Additional observations from a re-analysis of the deposited data

Results flagged for a closer look

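In 36 groups of 4 or 10 libraries, 3 values lay far from the rest by Dixon's criterion, where chance gives about 1 in 20 groups. Vwf in WT_9748 was 1048 CPM, while the other 9 CD4-competent libraries held 175 to 514 CPM (gap over range 0.612, critical value 0.466). Plaur in WT_9749 was 107 CPM, while the other competent libraries held 24.7 to 68.5 CPM (0.469 against 0.466). F8 in Tie2Cre_H2Abf_9576 was 1.24 CPM, from 7 counts, while the other 3 libraries of that background held 0 to 0.178 CPM (0.856 against 0.829).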

How the results depend on the processing

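The edgeR count of members past the threshold was 0 in all 10 comparisons and stayed 0 in each of the 200 fits that leave out 1 library and in 92 of 99 other values. For TCRKO against WT it was 1 (Vwf) with genes of at least 5 CPM in 10 libraries, without the 2 satellite-rich libraries and with DESeq2. With DESeq2 it was also 1 (Vwf) for TCRKO against CD4KO, 2 (Vwf and Plat) for the difference between the class II and TCRKO changes, and 2 (Vwf and Plaur) among any backgrounds, where it was 1 (Vwf) with no filter on low counts. The cause was not tested. The 13 log2 changes at an unadjusted p under 0.05 kept their direction in all 260 fits without 1 library and in all 128 others. They were chosen by p in these same libraries, so this says little about changes not so chosen. Plat by CD4 status, for example, kept its direction in 16 of 20 fits without 1 library and in 5 of 11 others. Counts of all genes called moved by more than 1.5 times with the tool: by edgeR, DESeq2 and limma-voom they were 4, 172 and 5 in TCRKO against WT, 0, 89 and 0 in CD4KO against WT, 0, 81 and 1 in CD8KO against WT, 3, 53 and 15 in Tie2Cre_H2Abf against Tie2Cre, 0, 80 and 0 in Tie2Cre against WT, 2, 102 and 10 in TCRKO against CD4KO, 0, 38 and 42 in TCRKO against CD8KO, 0, 64 and 0 in the difference of changes, 9, 261 and 16 among any backgrounds, and 0, 4 and 7 by CD4 status. Other settings gave 0 (only the 2 backgrounds) to 31 (no filter) in TCRKO against WT. Scaling to endothelial genes moved the median log2 change of all genes in CD8KO against WT to -0.84, beside -0.18 as reported, and in Tie2Cre against WT to -0.42, beside 0.02. No paired analysis was possible because each library number is used once. Depth limits F8 (0 to 73 counts) and Procr (3 to 343 counts).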
